A study of Mus musculus with 11 samples.

Results

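Acetylation of histone H3 at lysine 27 (H3K27ac) was compared between 2 drug treatments of Beko, a line of mouse pre-T cells. In 1 group of 2 libraries the cells received apicidin for 24 h at 0.01 mg/ml, the dose as labelled. In the other, also of 2 libraries, they received the gamma-secretase inhibitor (GSI) DAPT for 24 h at 10 mg/ml, again as labelled, so the comparison is of these agents at these unequal doses. The control that both share was DMSO for 24 h, with 2 libraries. The labels name no genetic change in any group, and they do not state whether the 2 libraries of a condition are separate cultures. The p-values below therefore reflect library-to-library spread that may be technical. All regions of the authors' deposited table of H3K27ac chromatin immunoprecipitation sequencing (ChIP-seq) entered, 56342 of 56342, and the comparison concerns 4 of the 11 libraries of the series. For each region the difference is the authors' log2 fold change with apicidin minus their log2 fold change with GSI, so a positive value means more acetylation under apicidin than under GSI. Because both fold changes refer to the same DMSO libraries, the standard error (SE) of the difference, taken as the root of the sum of both squared SEs, is an upper bound.

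H3K27ac marks active promoters and enhancers. It is written by the acetyltransferases p300 and CBP and removed by histone deacetylases (HDACs), among them HDAC3, which acts inside the NCoR and SMRT corepressor complexes. Apicidin is a cyclic peptide that inhibits class I deacetylases, and the labels call it an HDAC3 inhibitor. DAPT acts elsewhere: gamma-secretase cuts ligand-bound Notch receptors and frees their intracellular domain, which enters the nucleus, joins the DNA-binding protein RBPJ together with Mastermind and recruits p300. In early T cells this pathway switches on Dtx1, Hes1, Il2ra, Ptcra and other genes of T-lineage commitment. Without the intracellular domain, RBPJ is known to assemble corepressors that bring deacetylases. Both drugs could therefore act on acetylation at RBPJ-bound genes by different routes, which was not tested here. The comparison asks where their effects on H3K27ac part.

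Promoter sequences are shown for 4 genes whose acetylation differed between the treatments at or beside the start site. It was higher with apicidin at Dtx1 and Ptcra and lower at Trib3 and Fgf21. No rule set this choice. Start-site regions of Cox6a2, Ptpla, Soat2 and Jdp2 were also lower, and their windows are not shown. The printed sequences are RefSeq, build GRCm38.p6, minus strand, from 250 bases before to 30 bases after the start site. The acetylated regions are on mm9. Capitals mark TGGGAA (the core that RBPJ reads) and TGATGNAA (the element read by C/EBP-ATF dimers, also called the amino acid response element), searched on both strands, where the second appears as TTNCATCA.
Dtx1: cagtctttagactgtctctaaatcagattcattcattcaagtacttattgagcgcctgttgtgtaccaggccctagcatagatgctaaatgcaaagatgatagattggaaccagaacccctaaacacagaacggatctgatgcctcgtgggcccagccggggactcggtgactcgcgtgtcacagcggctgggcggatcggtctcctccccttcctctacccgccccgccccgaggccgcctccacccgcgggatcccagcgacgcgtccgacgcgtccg
Ptcra: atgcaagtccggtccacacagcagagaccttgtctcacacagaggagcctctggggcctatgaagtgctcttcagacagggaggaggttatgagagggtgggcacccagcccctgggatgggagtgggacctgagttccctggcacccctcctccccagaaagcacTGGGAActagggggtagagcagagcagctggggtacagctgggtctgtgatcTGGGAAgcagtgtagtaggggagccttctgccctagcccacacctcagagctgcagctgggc
Trib3: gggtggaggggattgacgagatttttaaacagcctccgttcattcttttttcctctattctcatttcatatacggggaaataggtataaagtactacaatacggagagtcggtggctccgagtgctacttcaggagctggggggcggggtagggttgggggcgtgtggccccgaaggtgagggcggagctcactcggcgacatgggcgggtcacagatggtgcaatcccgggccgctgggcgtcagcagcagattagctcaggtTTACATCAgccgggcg
Fgf21: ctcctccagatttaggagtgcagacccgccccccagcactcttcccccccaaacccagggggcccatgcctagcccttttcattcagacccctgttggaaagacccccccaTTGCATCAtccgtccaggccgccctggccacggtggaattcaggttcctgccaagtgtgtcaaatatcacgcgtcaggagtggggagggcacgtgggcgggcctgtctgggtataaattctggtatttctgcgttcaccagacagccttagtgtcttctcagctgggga
The windows lie at chr5:120711640-120711919 for Dtx1, chr17:46763683-46763962 for Ptcra, chr2:152344031-152344310 for Trib3 and chr7:45615461-45615740 for Fgf21. Ptcra held 2 copies of TGGGAA at bases 167 to 172 and 219 to 224 of the window, and Dtx1 held neither motif here. The window of Notch3, whose start-site region was also higher with apicidin, was searched too but is not printed, and it held neither motif. Trib3 held TTACATCA at bases 265 to 272, after the start site, and Fgf21 held TTGCATCA at bases 112 to 119, before it. TGGGAA occurred in 23.8% and TGATGNAA in 3.81% of the 32851 promoter windows of this length. Of 7754 gene symbols with a region covering a start site, 5836 had a window. Among these, TGGGAA stood in 21.8% of the 206 windows whose strongest start-site region was higher with apicidin, in 17.2% of the 1290 that were lower and in 22.7% of the 4340 not called. TGATGNAA stood in 0.971%, 2.33% and 2.12% of the same windows. A match is a description of the letters and not evidence of binding.

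Library depth is unknown, because the table holds fold changes and a mean over libraries but no value per library. The base mean, the authors' mean of normalised reads over libraries, ranged from 6.56 to 14330 with a median of 61.3. The T-lineage label was checked against marker genes: all 10 T-lineage markers (Cd3e, Lck, Rag1, Bcl11b and others) had an acetylated region, with base means of the strongest from 222 to 8020. Regions were assigned to 6 of 11 B-lineage, 4 of 13 myeloid, 5 of 10 erythroid and megakaryocyte, and 5 of 10 fibroblast and epithelial markers. No region was assigned to the defining genes Pax5, Ms4a1, Spi1, Csf1r, Mpo, Hba-a1, Hbb-b1, Col3a1 or Krt5.

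Acetylation differed between apicidin and GSI at 4853 of 56342 regions (8.61%) at a Benjamini-Hochberg adjusted p of the difference under 0.05. It was higher with apicidin at 1698 regions (3.01%) and lower at 3155 (5.60%). At the regions that were higher, the median difference was 0.74 (quartiles 0.55 and 1.03), from medians of 0.58 with apicidin and -0.14 with GSI in the authors' deposited table. At those that were lower, it was -0.68 (quartiles -0.89 and -0.54), from medians of -0.62 with apicidin and 0.06 with GSI in the authors' deposited table. Both called groups thus lay farther from DMSO under apicidin than under GSI. Across all regions the fold changes in the authors' deposited table had a standard deviation of 0.60 with apicidin and 0.43 with GSI.

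Each treatment was also called against DMSO by the authors. In the authors' deposited table apicidin passed an adjusted p under 0.05 at 9.69% of regions upwards and 14.1% downwards, and, of the 25756 regions with an adjusted p for it, GSI at 6.62% upwards and 7.17% downwards. Of the 1698 regions higher with apicidin than with GSI, the authors' deposited table called 1273 higher with apicidin and 71 lower, against 144 higher and 471 lower with GSI and 75 untested. Of the 3155 regions that were lower, the authors' deposited table called 2870 lower with apicidin and 7 higher, against 110 lower and 368 higher with GSI and 119 untested. These comparisons share their DMSO libraries. Differences of at least 1 on the log2 scale, a doubling of the ratio, were found among the called regions at 454 that were higher and 546 that were lower. The balance between the directions moved with the zero of the scale: 35.0% of calls were higher with apicidin as deposited, 49.5% after the median of the stronger regions (-0.081) was subtracted and 54.3% after the median at each level of base mean was subtracted.

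**Figure D1:**
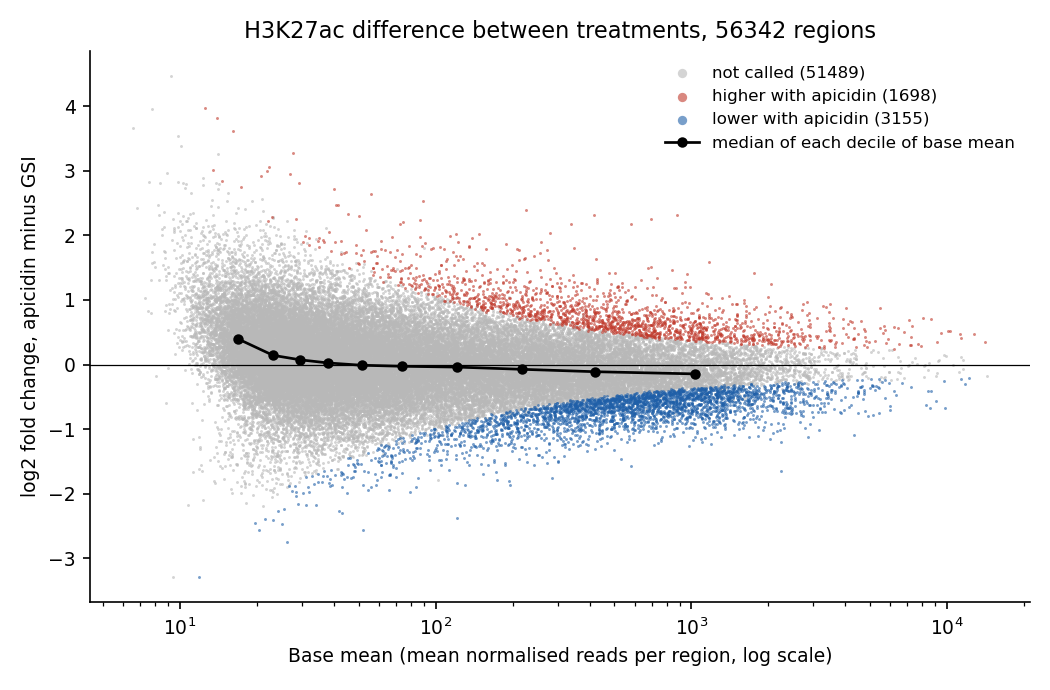
Each point is 1 of 56342 regions, with the base mean on a log x axis and the log2 fold change with apicidin minus that with GSI on the y axis; red and blue mark the 1698 higher and 3155 lower calls, and the black line joins the median of each decile of base mean. The median falls from 0.40 in the weakest decile to -0.14 in the strongest, and calls concentrate at strong regions.

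Strong regions carried most of the calls. Of the weakest decile of regions by base mean 0.142% were called, and of the strongest decile 40.0%, with median SEs of the difference of 0.837 and 0.131. The median difference in these deciles was 0.40 and -0.14. At weak regions a difference was therefore mostly not detectable at this precision.

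Start sites leaned towards lower acetylation with apicidin. Of 7889 regions that cover a transcription start site, 1719 were lower and 305 higher (called, 25.7%), and their median difference was -0.22, from medians of -0.24 with apicidin and 0.0016 with GSI in the authors' deposited table. Regions 1 to 1000 bp from the start site leaned the same way, with 70 higher and 184 lower calls among 3553 and a median of -0.041. Regions over 1 and up to 10 kb from the start site had 333 higher and 302 lower calls among 16208 and a median of 0.15. Those over 10 and up to 50 kb away (18374 regions) had 572 higher and 597 lower with a median of 0.0065, and those beyond 50 kb (10318 regions) had 418 higher and 353 lower with a median of 0.036. Start-site regions are also stronger, with a median base mean of 475. Compared within deciles of base mean, their median minus that of the other regions was -0.21, against -0.28 without that matching, and it was negative in 8 of the 8 deciles that held at least 20 regions of each kind.

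**Figure D2:**
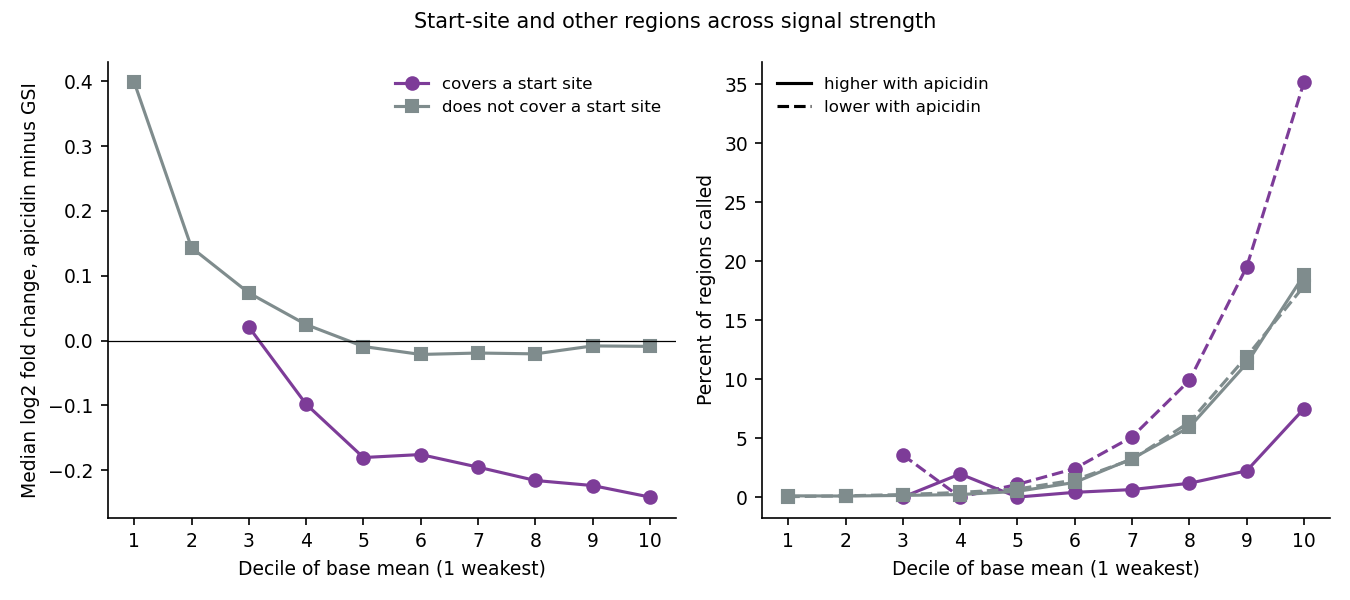
Left, the median log2 fold change with apicidin minus that with GSI (y axis) by decile of base mean (x axis) for regions that cover a start site (purple circles) and those that do not (grey squares), for deciles with at least 20 regions; right, the percent of regions called higher (solid) or lower (dashed). In the strongest decile the start-site median was -0.24 against -0.0089 for the others.

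RBPJ-overlapping regions split by place. The authors marked 1538 regions as overlapping an RBPJ site, mapped by ChIP-seq in the DMSO cells. Of these, 132 were higher and 277 lower with apicidin (26.6% called). Those that cover a start site resembled other start-site regions, with 48 higher and 211 lower of 947 and a median of -0.21, against 257 and 1508 of 6942 and a median of -0.22. Away from start sites, 84 of 591 RBPJ-overlapping regions were higher (14.2%) and 66 lower (11.2%), against 2.73% and 2.86% of the 47862 regions without RBPJ. RBPJ-overlapping regions are stronger, with a median base mean of 319 away from start sites against 47.7, and base mean moves with the called share. In the strongest decile away from start sites, 33.5% of 179 RBPJ-overlapping regions were higher, against 17.7% of 2386 without RBPJ, and 18.4% and 17.9% were lower. In the next strongest decile the order was the other way, with 8.40% of 119 higher against 11.4% of 3137. The lower shares there were 16.0% and 11.8%. Within the strongest decile away from start sites, RBPJ-overlapping regions were still stronger, with a median base mean of 1393 against 992. These differences in shares were not tested. The median of all RBPJ-overlapping regions minus that of the others was -0.17, whereas within strata of base mean and place it was -0.0013 and negative in 5 of 10 strata.

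The largest differences upwards among the stronger regions (base mean at or above the median) lay at Gpr25, Ptpro, Gm5122 and Lef1. At chr1:138154225-138155123, 2326 bp from the start site of Gpr25, a G protein-coupled receptor gene, the log2 fold change in the authors' deposited table was 2.43 ± 0.28 with apicidin and -0.094 ± 0.33 with GSI. The difference of 2.53 ± 0.44 (adjusted p = 6.02e-07) came from apicidin alone passing the authors' threshold. Lef1 encodes a high-mobility-group transcription factor of T-cell development, and its region at chr3:130808623-130811580, 1634 bp from the start site, read 1.73 ± 0.13 with apicidin and -0.58 ± 0.15 with GSI in the authors' deposited table. Its difference was 2.31 ± 0.20 (adjusted p = 1.34e-27), with both treatments past the authors' threshold and in opposite directions. Chd7, a chromatin remodeller gene, had a region at chr4:8853472-8854853 that read 1.98 ± 0.25 with apicidin and -0.039 ± 0.28 with GSI in the authors' deposited table. That difference was 2.02 ± 0.38 (adjusted p = 5.33e-06).

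At other loci GSI lay well below DMSO. Ptpro encodes a receptor tyrosine phosphatase, and its region at chr6:137370169-137372505 read 0.63 ± 0.16 with apicidin and -1.76 ± 0.20 with GSI in the authors' deposited table, a difference of 2.40 ± 0.26 (adjusted p = 3.09e-17). Gm5122, a predicted gene, had the smallest SE of the 12, with a difference of 2.32 ± 0.15 (adjusted p = 1.63e-49) at chr9:60901186-60906098. Its values in the authors' deposited table were 0.68 ± 0.097 with apicidin and -1.64 ± 0.11 with GSI. Prkch, the gene of protein kinase C eta, had an RBPJ-overlapping region at chr12:74697954-74700380 that read 1.10 ± 0.15 with apicidin and -0.95 ± 0.18 with GSI in the authors' deposited table. The difference there was 2.04 ± 0.24 (adjusted p = 3.92e-15), and each treatment passed the authors' threshold in its own direction. The rest of the 12 largest ran from 1.97 at Runx1 to 2.23 at I730028E13Rik, with 4921525O09Rik, 5033404E19Rik, B930092H01Rik and Gm829 among them.

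Trib3, Cox6a2, Rxra and Fgf21 led the differences downwards. Trib3 encodes a pseudokinase induced by the stress factor ATF4, and its region 12 bp from the start site (chr2:152169338-152169783) read -2.16 ± 0.25 with apicidin and 0.21 ± 0.22 with GSI in the authors' deposited table. The difference was -2.38 ± 0.34 (adjusted p = 4.48e-10). Fgf21, a hormone gene under the same factor, read -1.78 ± 0.19 with apicidin and 0.079 ± 0.17 with GSI in the authors' deposited table at the region over its start site, chr7:52870773-52872492. It differed by -1.86 ± 0.26 (adjusted p = 8.42e-11). The promoter sequences of both genes are those printed above with the TTNCATCA match. Such a match stood in 2.33% of lower and 2.12% of uncalled windows, and its link to acetylation was not tested. In the Trib3 and Fgf21 regions GSI stayed within 1 SE of DMSO and apicidin lay far below it.

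Rxra, which encodes a nuclear receptor that pairs with the retinoic acid and vitamin D receptors, read -2.17 ± 0.34 with apicidin and -0.23 ± 0.31 with GSI in the authors' deposited table. Its difference was -1.94 ± 0.46 (adjusted p = 6.90e-04). Soat2, an enzyme gene of cholesterol ester formation, differed by -1.84 ± 0.33 (adjusted p = 1.63e-06) at its start site. Ptpla, an enzyme gene of very long fatty acid elongation, differed by -1.86 ± 0.32 (adjusted p = 7.98e-07) and Dagla, which encodes a diacylglycerol lipase, by -1.75 ± 0.23 (adjusted p = 2.45e-11). Pfkfb3, a regulator of glycolysis, differed by -1.75 ± 0.43 (adjusted p = 0.00128). Fcrla, Trappc9 and Ccdc93 lay between -1.90 and -1.76, and Cox6a2 and Jdp2, described below, completed the 12.

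**Figure D3:**
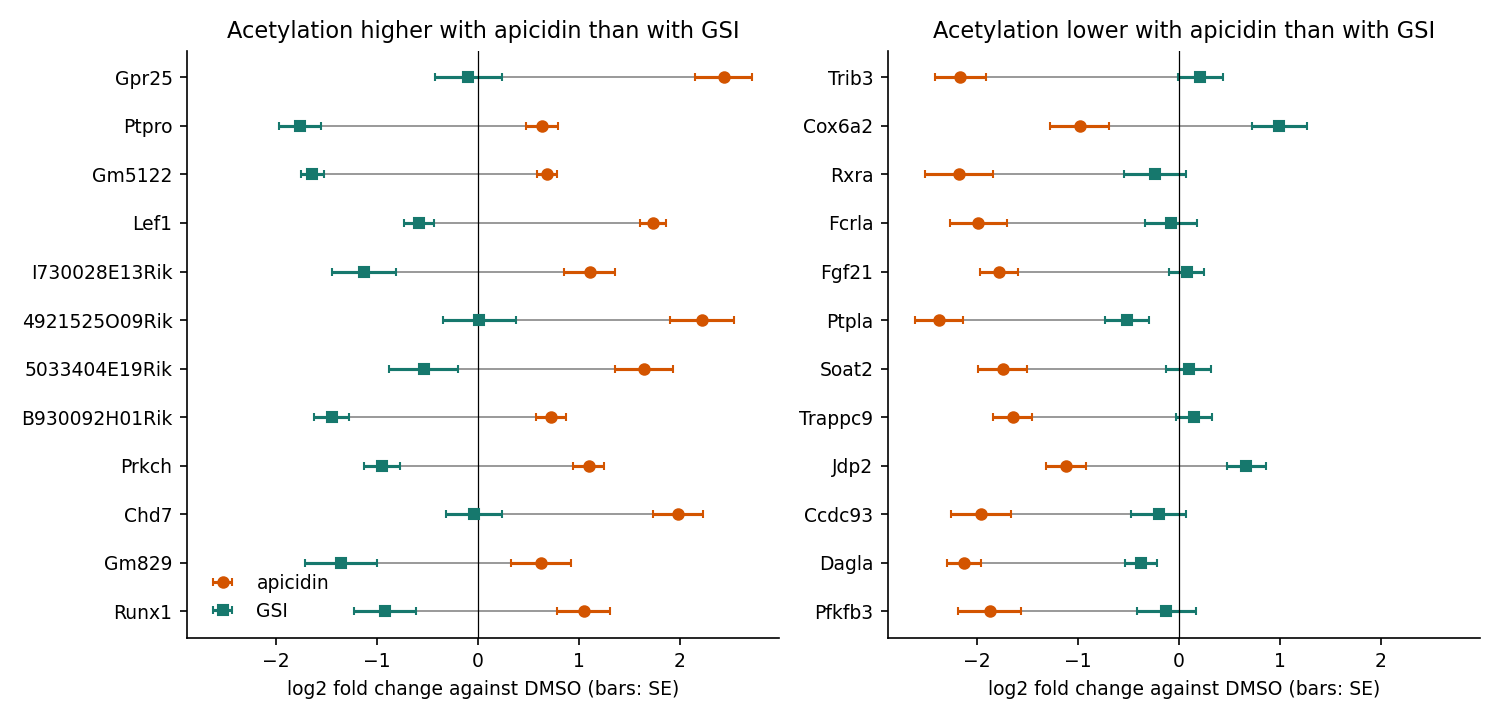
The 12 largest differences in each direction among regions with a base mean at or above the median (1 region per gene), with log2 fold changes against DMSO on the x axis, apicidin as orange circles, GSI as green squares and bars of 1 SE. On the left GSI lies near or below 0 and apicidin above it; on the right apicidin lies between -2.37 and -0.98 and GSI between -0.51 and 1.00.

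Some regions moved in opposite directions, each past the authors' threshold. Runx1, a T-lineage and blood-cell transcription factor gene, read 1.05 ± 0.26 with apicidin and -0.92 ± 0.31 with GSI in the authors' deposited table at a region 216309 bp from its start site, and differed by 1.97 ± 0.40 (adjusted p = 5.15e-05). Pomc, the gene of the precursor of adrenocorticotropin, read 0.92 ± 0.22 with apicidin and -0.82 ± 0.26 with GSI in the authors' deposited table, a difference of 1.74 ± 0.34 (adjusted p = 2.35e-05). A second Ptpro region at chr6:137401425-137403221 read 0.98 ± 0.22 with apicidin and -1.05 ± 0.25 with GSI in the authors' deposited table. In the other direction, Cox6a2, a subunit gene of cytochrome c oxidase, read -0.98 ± 0.29 with apicidin and 1.00 ± 0.27 with GSI in the authors' deposited table and differed by -1.98 ± 0.40 (adjusted p = 3.63e-05). Jdp2, a repressor of the AP-1 family, read -1.11 ± 0.20 with apicidin and 0.67 ± 0.19 with GSI in the authors' deposited table, differing by -1.78 ± 0.28 (adjusted p = 1.89e-08). Bbc3, the gene of the pro-apoptotic protein PUMA, read -0.60 ± 0.20 with apicidin and 0.72 ± 0.20 with GSI in the authors' deposited table. Its difference was -1.32 ± 0.28 (adjusted p = 1.20e-04). Banp, Gm4906 and Hs3st5 followed the same pattern, with differences of -1.47, -1.12 and -1.21.

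Some regions changed by like amounts under both treatments. At 3919 regions (6.96%) the 95% interval of the difference lay within 0.5 on both sides of 0. Ccr9, a chemokine receptor gene of thymocyte homing, had a region at chr9:123663938-123667668 that read 2.73 ± 0.12 with apicidin and 2.76 ± 0.12 with GSI in the authors' deposited table. The difference was -0.025, with a 95% interval from -0.36 to 0.31. Rhbdl3, a rhomboid family gene, read 2.23 ± 0.15 with apicidin and 2.27 ± 0.15 with GSI in the authors' deposited table, and its interval ran from -0.47 to 0.38. A region at chr14:54851707-54854194 named for Dad1, the neighbour of the T cell receptor alpha locus, read 1.67 ± 0.15 with apicidin and 1.72 ± 0.15 with GSI in the authors' deposited table, with an interval from -0.47 to 0.37. Vmn2r97, Sp2 and 8430419L09Rik regions were raised by both, with values from 1.07 upwards in the authors' deposited table. Of the 3919 regions, 69 were also called different, by small amounts at high precision.

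Of the Notch target genes, 7 of 18 were acetylated more under apicidin than under GSI. Here a gene is represented by its strongest region, that of highest base mean. Over the 12081 gene symbols such regions were higher at 636 (5.26%) and lower at 2183 (18.1%), with a median of -0.17. Of 20 listed Notch targets 18 had a region; 7 were higher (Dtx1, Il2ra, Trib2, Notch1, Ptcra, Deptor and Notch3), 1 was lower (Cd44) and 10 did not pass. Their median difference was 0.16 (medians -0.31 with apicidin and -0.48 with GSI in the authors' deposited table). The list was chosen with results of these data known, so its direction is a description.

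Dtx1 encodes Deltex, an E3 ubiquitin ligase that feeds back on Notch. Its RBPJ-overlapping region at chr5:121132301-121142431, 19246 bp from the start site, read 0.018 ± 0.079 with apicidin and -1.40 ± 0.086 with GSI in the authors' deposited table. The difference of 1.42 ± 0.12 (adjusted p = 4.03e-30) was the largest of the list relative to its SE. At the region over its start site (base mean 2002) the values in the authors' deposited table were -0.23 ± 0.071 with apicidin and -1.27 ± 0.077 with GSI, a difference of 1.04 ± 0.10 (adjusted p = 4.55e-20). Thus the distal region sat at the DMSO level under apicidin, and the start-site region slightly under it.

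Il2ra, the alpha chain of the interleukin-2 receptor, read -0.33 ± 0.062 with apicidin and -0.96 ± 0.065 with GSI in the authors' deposited table at its strongest region, chr2:11538831-11551364, which overlaps RBPJ. The difference was 0.63 ± 0.090 (adjusted p = 3.56e-10). All 16 of its regions were higher with apicidin by value and 7 were called (between 0.33 and 1.24), against 3.01% over all regions. Here both drugs lowered acetylation and GSI lowered it further. Ptcra, the pre-T cell receptor alpha chain, read -0.49 ± 0.058 with apicidin and -1.01 ± 0.060 with GSI in the authors' deposited table across its start site and differed by 0.52 ± 0.083 (adjusted p = 5.42e-08). The receptors Notch1 and Notch3 had the same order at their RBPJ-overlapping start-site regions. Notch1 (chr2:26336543-26377124, base mean 12722) read -0.30 ± 0.049 with apicidin and -0.77 ± 0.050 with GSI in the authors' deposited table, a difference of 0.47 ± 0.070 (adjusted p = 3.13e-09). Notch3 read -0.36 ± 0.068 with apicidin and -0.93 ± 0.070 with GSI in the authors' deposited table, a difference of 0.57 ± 0.098 (adjusted p = 5.42e-07).

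Hes1, the basic helix-loop-helix repressor most used as a Notch readout, read -0.61 ± 0.14 with apicidin and -1.24 ± 0.15 with GSI in the authors' deposited table at the RBPJ-overlapping region over its start site. Its difference of 0.63 ± 0.21 (adjusted p = 0.0295) passed, whereas its strongest region, 276 bp away, gave 0.49 ± 0.21 (adjusted p = 0.138). Trib2, a pseudokinase gene, read 0.47 ± 0.095 with apicidin and -0.49 ± 0.10 with GSI in the authors' deposited table at its RBPJ-overlapping region, so the treatments moved it in opposite directions by 0.96 ± 0.14 (adjusted p = 1.25e-09). Deptor, an inhibitor of mTOR, read 0.092 ± 0.11 with apicidin and -0.89 ± 0.12 with GSI in the authors' deposited table at a region 64434 bp from its start site and differed by 0.99 ± 0.16 (adjusted p = 8.38e-08). Apicidin thus stood at or above the DMSO level at the distal Dtx1, Trib2 and Deptor regions and below it at those of Il2ra, Ptcra, Hes1, Notch1 and Notch3.

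Other Notch targets did not pass or differed in the other direction. Myc, the growth regulator, read -0.26 ± 0.062 with apicidin and -0.40 ± 0.063 with GSI in the authors' deposited table over its start site, and the difference of 0.14 ± 0.089 (adjusted p = 0.457) did not pass. Nrarp, a feedback inhibitor of the Notch complex, read -0.72 ± 0.072 with apicidin and -0.43 ± 0.073 with GSI in the authors' deposited table, and its difference was -0.29 ± 0.10 (adjusted p = 0.0584). Heyl, a repressor of the Hes family, read -1.18 ± 0.17 with apicidin and -0.89 ± 0.18 with GSI in the authors' deposited table at its RBPJ-overlapping start-site region, with a difference of -0.29 ± 0.25 (adjusted p = 0.692). Hey1 passed in the other direction at an RBPJ-overlapping region 97998 bp from its start site, by -0.33 ± 0.11 (adjusted p = 0.0379), a call that was lost under both centrings of the difference (values of -0.25 and -0.18). Its start-site region gave 0.21 ± 0.10 (adjusted p = 0.238), and its other regions did not pass. Lfng, a glycosyltransferase that modifies Notch receptors, differed by -0.83 ± 0.22 (adjusted p = 0.00429) at a region 9429 bp away. Cd44, an adhesion receptor gene, held both signs: a region 13729 bp from the start site differed by 1.22 ± 0.23 (adjusted p = 6.87e-06), and its strongest by -0.37 ± 0.10 (adjusted p = 0.00535), a call lost under both centrings. Ccnd1, Cdkn1a, Igf1r and Hes7 had no region that passed, and no region was assigned to Hes5 or Hey2.

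**Figure D4:**
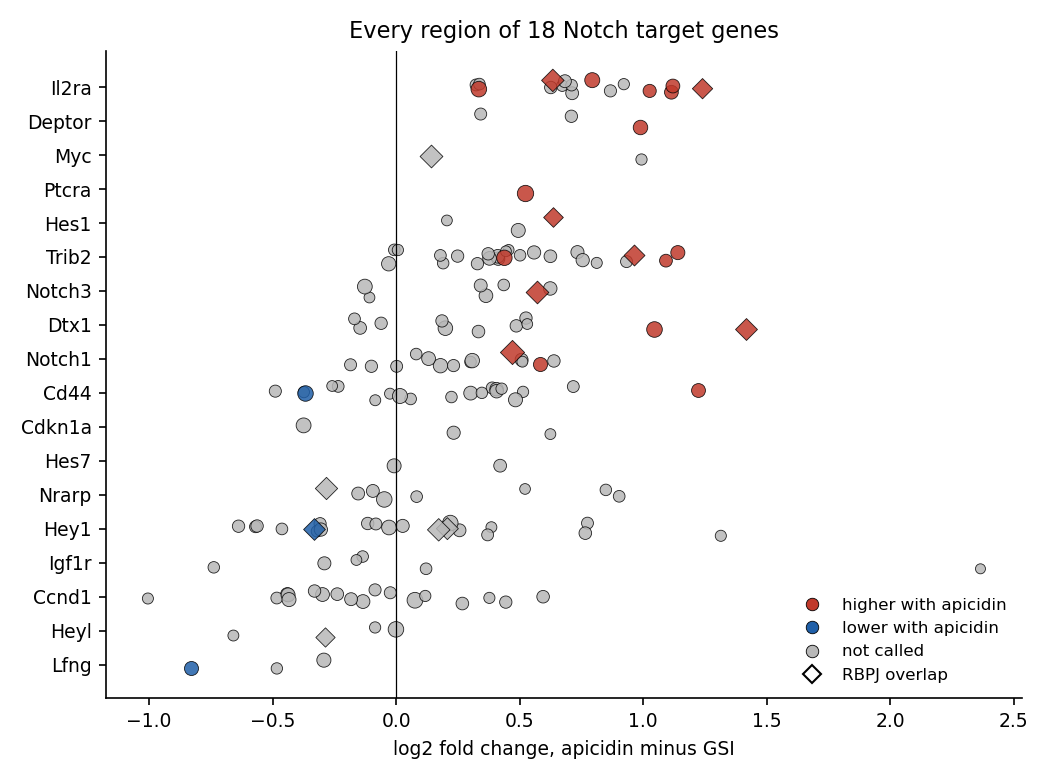
Every region of the 18 Notch target genes, ordered by median, with the log2 fold change with apicidin minus that with GSI on the x axis; point size grows with base mean, diamonds overlap RBPJ, red and blue are calls and grey is not called. All 16 Il2ra regions lie to the right of 0, while Hey1 and Cd44 regions lie on both sides.

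Genes that build the pathway were called no more often than all genes. Among 24 with a region of 30 listed Notch receptors, ligands, processing enzymes and RBPJ cofactors, 1 was higher and 3 lower by the strongest region, with a median of -0.16, and the lower count was 0 after either centring. The called share was 16.7%, against 23.3% over all symbols, whose median was -0.17. Mfng, a fringe glycosyltransferase, was higher by 0.40 ± 0.098 (adjusted p = 0.00114) and read 0.24 ± 0.068 with apicidin and -0.16 ± 0.070 with GSI in the authors' deposited table. Maml3, a Mastermind coactivator, was lower by -0.65 ± 0.12 (adjusted p = 2.14e-06) at a region 32500 bp from its start site. Itch, a ubiquitin ligase that acts on Notch, differed by -0.59 ± 0.19 (adjusted p = 0.0198), and Aph1b, a gamma-secretase subunit, by -0.62 ± 0.20 (adjusted p = 0.0287). Kdm5a, the demethylase that works with RBPJ as a corepressor, differed by -0.37 ± 0.12 (adjusted p = 0.0364).

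T-lineage transcription factor genes held some of the widest differences. Of 24 with a region of 26 listed, 5 were higher (Tcf7, Lef1, Runx1, Ets1 and Id3) and 2 lower (Tcf3 and Egr2) by the strongest region. The shares were 20.8% higher and 8.33% lower, against 5.26% and 18.1% over all symbols. The list median was 0.069, against -0.17 over all symbols. It came from medians of 0.013 with apicidin and 0.061 with GSI in the authors' deposited table. Tcf7 encodes TCF-1, a driver of T-cell commitment, and its RBPJ-overlapping region at chr11:52117484-52127890 read 1.22 ± 0.071 with apicidin and -0.031 ± 0.075 with GSI in the authors' deposited table. The difference was 1.25 ± 0.10 (adjusted p = 6.88e-30), and 9 of its 13 regions were called higher, with all 13 positive and a range from 0.38 to 1.25. Lef1 had 11 of 65 regions called higher and Runx1 8 of 65, and neither had a region called lower. Over all regions 3.01% were called higher and 5.60% lower. Ikzf1, which encodes Ikaros, read 0.44 ± 0.048 with apicidin and -0.26 ± 0.049 with GSI in the authors' deposited table at a region 12686 bp from its start site and differed by 0.70 ± 0.069 (adjusted p = 1.20e-20), while its strongest region gave 0.070 ± 0.072 (adjusted p = 0.769). Ets1 differed by 0.57 ± 0.078 (adjusted p = 7.06e-11) across its start site and Sox4 by 0.65 ± 0.13 (adjusted p = 1.70e-05) at 7627 bp. The strongest Sox4 region gave -0.20 ± 0.099 (adjusted p = 0.276). Runx3, a relative of Runx1, had 4 of 11 regions lower and 0 higher, with 0.16 ± 0.14 (adjusted p = 0.700) at its strongest. Id3, an inhibitor of E proteins, differed by 0.92 ± 0.22 at its strongest region, while the E protein gene Tcf3 differed by -0.30 ± 0.10 and the early response gene Egr2 by -0.51 ± 0.12.

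Among genes of the T cell receptor and its assembly, more were higher with apicidin than lower. Of 23 listed, 12 did not pass, 10 were higher by the strongest region (Cd3e, Lat, Cd2, Cd28, Thy1, Ptprc, Rag1, Rag2, Dntt and Ptcra) and 1 lower (Cd5), with a median of 0.20 (medians 0.048 with apicidin and 0.030 with GSI in the authors' deposited table). The shares were 43.5% higher and 4.35% lower, against 5.26% and 18.1% over all symbols. The recombinase genes Rag1 and Rag2, which cut receptor gene segments, differed by 0.81 ± 0.15 and 0.70 ± 0.13. Dntt, the terminal transferase that adds bases at the joints, read 0.15 ± 0.050 with apicidin and -0.27 ± 0.051 with GSI in the authors' deposited table and differed by 0.42 ± 0.071 (adjusted p = 2.60e-07). Cd3e, a signalling chain of the receptor, read 0.17 ± 0.072 with apicidin and -0.48 ± 0.076 with GSI in the authors' deposited table at a region 5556 bp from its start site, a difference of 0.65 ± 0.11 (adjusted p = 8.15e-08). Thy1, a surface glycoprotein of thymocytes, differed by 0.58 ± 0.076 (adjusted p = 3.94e-12), and there GSI read 0.034 ± 0.054 in the authors' deposited table, so GSI lay close to DMSO. Cd28, the costimulatory receptor, differed by 0.73 ± 0.13 (adjusted p = 7.05e-07) and Ptprc, the phosphatase CD45, by 0.47 ± 0.084 (adjusted p = 1.36e-06). Cd5, a negative regulator of receptor signalling, differed by -0.53 ± 0.17, a call that was lost under both centrings.

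Receptor and effector genes were also higher with apicidin more often than lower. Among chemokine, adhesion and cytokine receptor genes, 24 of 27 had a region, 6 were higher and 2 lower, with a median of 0.25. The shares were 25% higher and 8.33% lower, against 5.26% and 18.1% over all symbols. The interleukin-12 receptor genes Il12rb1 and Il12rb2 differed by 0.65 ± 0.11 (adjusted p = 9.55e-08) and 0.71 ± 0.13 (adjusted p = 6.94e-06), and Il10ra by 0.83 ± 0.17 (adjusted p = 3.31e-05). Cxcr4, a chemokine receptor gene, was lower at its strongest region by -0.30 ± 0.083 and higher at a region 188505 bp away by 1.25 ± 0.21 (adjusted p = 1.29e-07). Il2rb, the interleukin-2 receptor beta chain, was lower by -1.09 ± 0.31. Of 23 listed effector cytokine, granzyme and innate lymphoid genes 13 had a region, with a median of 0.67. By the strongest region 4 were higher (30.8%) and 0 lower. Those were Ifng with 1.03 ± 0.19 (adjusted p = 7.95e-06), Tnf with 0.67 ± 0.16 (adjusted p = 6.27e-04), Gzma with 0.59 ± 0.099 (adjusted p = 3.04e-07) and Il4 with 1.02 ± 0.24 (adjusted p = 8.81e-04). At Gzma both drugs were above DMSO, with 0.82 ± 0.068 with apicidin and 0.24 ± 0.071 with GSI in the authors' deposited table. Nfil3, a transcription factor gene of innate lymphoid cells, was lower at a region 139011 bp away, by -1.04 ± 0.26 (adjusted p = 0.00151).

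**Figure D5:**
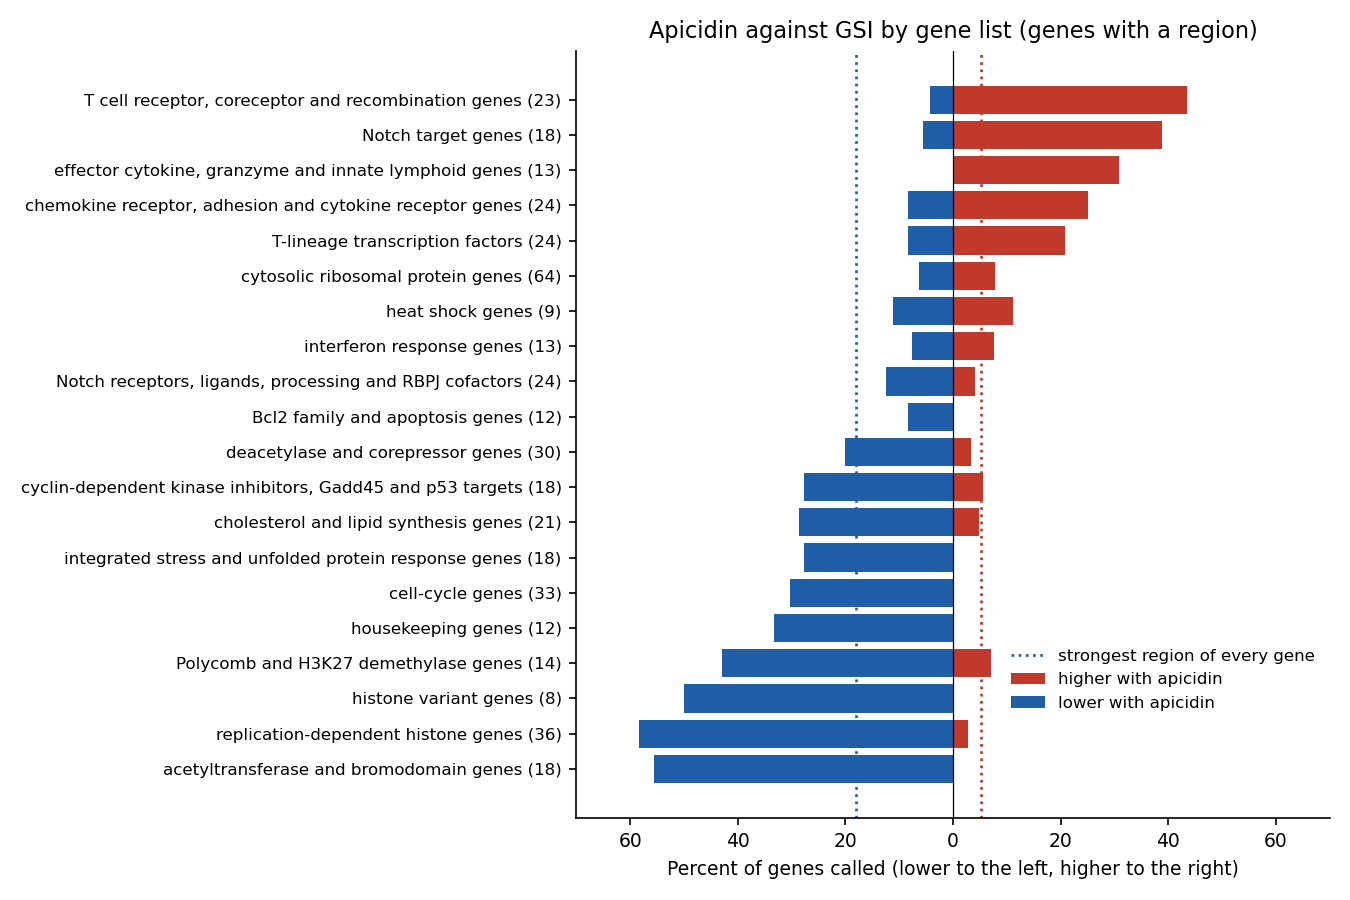
Percent of genes whose strongest region was called higher (red, to the right) or lower (blue, to the left) with apicidin than with GSI, for lists with at least 8 genes that have a region (number in brackets); dotted lines give the 5.26% and 18.1% over all 12081 gene symbols. T cell receptor and Notch target genes reach furthest to the right, at 43.5% and 38.9%, and histone and acetyltransferase genes furthest to the left.

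Several genes of the acetylation machinery itself were lower with apicidin. Of 18 acetyltransferase and bromodomain genes with a region, 10 were lower, 0 higher and 8 did not pass by the strongest region, against the 18.1% over all genes, with a median of -0.42 (medians -0.40 with apicidin and -0.046 with GSI in the authors' deposited table). A start site lies in 16 of the 18 strongest regions, and the list median was 0.017 with all regions of each gene averaged. Ep300, the gene of the acetyltransferase p300, read -0.76 ± 0.074 with apicidin and -0.0056 ± 0.074 with GSI in the authors' deposited table and differed by -0.75 ± 0.10 (adjusted p = 1.88e-10). Crebbp, which encodes CBP, differed by -0.62 ± 0.17. Kat5, the gene of the acetyltransferase Tip60, differed by -0.70 ± 0.13 (adjusted p = 2.88e-06), and Brd2, a reader of acetylated histones, by -0.49 ± 0.092 (adjusted p = 6.48e-06). At Ncoa3, a nuclear receptor coactivator gene, GSI stood above DMSO, with 0.068 ± 0.078 with apicidin and 0.52 ± 0.079 with GSI in the authors' deposited table.

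Deacetylase genes were mixed and near the background share. Of 30 deacetylase and corepressor genes, 6 were lower (20%) and 1 higher (3.33%) by the strongest region, against 18.1% and 5.26% over all symbols. Hdac2, a class I deacetylase and so a relative of HDAC3, read -0.73 ± 0.10 with apicidin and 0.0032 ± 0.10 with GSI in the authors' deposited table and differed by -0.73 ± 0.14 (adjusted p = 2.38e-05). Ncor1, the corepressor scaffold, differed by -0.47 ± 0.095 (adjusted p = 3.96e-05), Rcor1 by -0.90 ± 0.16 (adjusted p = 1.81e-06) and the sirtuin gene Sirt1 by -1.03 ± 0.22 (adjusted p = 9.80e-05). Hdac7, a class II deacetylase of thymocytes, was higher by 0.35 ± 0.066 (adjusted p = 9.45e-06) and read 0.21 ± 0.046 with apicidin and -0.14 ± 0.047 with GSI in the authors' deposited table. Among 14 Polycomb and H3K27 demethylase genes, 6 were lower (42.9%) and 1 higher (7.14%), against the same 18.1% and 5.26%. Their median of -0.45 became 0.082 with all regions of each gene averaged. Bmi1, a subunit of Polycomb repressive complex 1, read -1.55 ± 0.18 with apicidin and -0.12 ± 0.17 with GSI in the authors' deposited table at its start site and differed by -1.43 ± 0.25 (adjusted p = 5.97e-07). Cbx8 differed by -1.50 ± 0.24 (adjusted p = 3.89e-08), and Ezh2, the H3K27 methyltransferase, by -0.43 ± 0.097 (adjusted p = 3.61e-04). Kdm6b, an H3K27 demethylase, was the member that was higher, by 0.40 ± 0.090 (adjusted p = 2.88e-04).

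Many replication-dependent histone genes, which are transcribed in S phase from clusters, were lower with apicidin than with GSI. Of 36 with a region, 21 were lower with apicidin than with GSI and 1 higher (Hist1h2bj) by the strongest region. The shares were 58.3% lower and 2.78% higher, against 18.1% and 5.26% over all symbols. With all regions of each gene averaged, the median was -0.17. By the strongest region the list median was -0.51. The medians of -0.26 with apicidin and 0.28 with GSI in the authors' deposited table lay on opposite sides of DMSO. Hist1h3c read -0.45 ± 0.051 with apicidin and 0.32 ± 0.052 with GSI in the authors' deposited table and differed by -0.78 ± 0.073 (adjusted p = 6.43e-23). Hist1h4d read -0.55 ± 0.066 with apicidin and 0.33 ± 0.065 with GSI in the authors' deposited table, a difference of -0.89 ± 0.093 (adjusted p = 1.59e-18). The linker histone gene Hist1h1b differed by -0.71 ± 0.084 (adjusted p = 2.60e-14) and Hist2h2ab, in the chromosome 3 cluster, by -0.63 ± 0.090 (adjusted p = 6.74e-10). Neighbours in a cluster share regions and near-identical sequence, and the handling of reads that fit several copies is unstated in the sources used here. Among 8 histone variant genes with a region, 4 were lower (H2afz, H2afv, H3f3a and H1f0) and 0 higher. The lower share was 50%, against the same 18.1%. H2afx, whose product marks DNA breaks once phosphorylated, differed by -1.09 ± 0.20 (adjusted p = 6.27e-06) at a region 224 bp from its start site that is not its strongest.

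Some cell-cycle genes were lower with apicidin. Of 33 with a region, 10 were lower (Ccna2, Ccnb1, Cdk1, Cdc20, Cdc25c, Plk1, Aurkb, Mki67, Top2a and Mcm5), 0 higher and 23 did not pass by the strongest region, and the list median was -0.12, above the -0.17 of all genes. The lower share was 30.3%, against 18.1% over all symbols. Of the 33 strongest regions 26 cover a start site, and of all start-site regions 21.8% were lower. The widest difference was at a start-site region of Ccnb2, a mitotic cyclin gene, which read -1.21 ± 0.11 with apicidin and 0.36 ± 0.11 with GSI in the authors' deposited table and differed by -1.56 ± 0.16 (adjusted p = 1.16e-19). It was the only called region of the 13 assigned to Ccnb2, whose strongest region read 0.52 with apicidin and 0.66 with GSI in the authors' deposited table and did not pass (-0.14 ± 0.14, adjusted p = 0.752). Cdc20, an activator of the anaphase-promoting complex, differed by -0.77 ± 0.13 (adjusted p = 1.78e-07), and Cdk1, the mitotic kinase, by -0.65 ± 0.13 (adjusted p = 1.89e-05). Ccnb1 differed by -0.80 ± 0.15 (adjusted p = 1.54e-05) and the proliferation marker Mki67 by -0.63 ± 0.12 (adjusted p = 8.77e-06). GSI values at these 4 genes lay between -0.13 and -0.047 in the authors' deposited table, and none passed the authors' threshold.

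Some inhibitors of the cycle were lower as well. Among 18 cyclin-dependent kinase inhibitor, Gadd45 and p53 target genes with a region, 5 were lower and 1 higher, with 2 lower after either centring. The shares were 27.8% lower and 5.56% higher, against 18.1% and 5.26% over all symbols. The list median of -0.20 was near the -0.17 of all symbols. Cdkn2c, the inhibitor p18, read -0.81 ± 0.052 with apicidin and -0.049 ± 0.052 with GSI in the authors' deposited table across its start site and differed by -0.76 ± 0.074 (adjusted p = 4.23e-21). Cdkn1b, the inhibitor p27, differed by -0.41 ± 0.067 (adjusted p = 1.34e-07). Cdkn1a, the inhibitor p21 often raised by deacetylase inhibitors, read -0.57 ± 0.10 with apicidin and -0.20 ± 0.10 with GSI in the authors' deposited table, and its difference of -0.37 ± 0.14 (adjusted p = 0.0881) did not pass. Gadd45g, a stress sensor gene, was raised by both drugs, with 2.36 ± 0.17 with apicidin and 1.46 ± 0.18 with GSI in the authors' deposited table, and more by apicidin, by 0.90 ± 0.24 (adjusted p = 0.00500). Btg1, an antiproliferative gene, was higher by 1.58 ± 0.31 (adjusted p = 2.98e-05) at a region 245242 bp from its start site.

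Some genes of the integrated stress and unfolded protein responses were lower with apicidin. Of 18 with a region, 5 were lower (Trib3, Chac1, Xbp1, Slc3a2 and Slc7a5), 0 higher and 13 did not pass by the strongest region. The lower share was 27.8%, against 18.1% over all symbols, and the list median was -0.25, or -0.089 with all regions of each gene averaged. Chac1, which degrades glutathione, read -1.50 ± 0.16 with apicidin and -0.080 ± 0.15 with GSI in the authors' deposited table and differed by -1.42 ± 0.22 (adjusted p = 1.59e-08). Slc7a11, the cystine transporter, differed by -1.23 ± 0.13 (adjusted p = 2.10e-19) at its start site, where the treatments lay on opposite sides of DMSO with -0.83 ± 0.089 with apicidin and 0.39 ± 0.088 with GSI in the authors' deposited table. Xbp1, a transcription factor of the unfolded protein response, differed by -0.81 ± 0.15 (adjusted p = 6.62e-06), and Herpud1, which acts in degradation from the endoplasmic reticulum, by -0.71 ± 0.12 (adjusted p = 4.22e-07). Of 21 cholesterol and lipid synthesis genes 6 were lower (28.6%) and 1 higher (4.76%), against 18.1% and 5.26% over all symbols. Insig1, which retains the sterol sensor, differed by -0.53 ± 0.089 (adjusted p = 3.08e-07) and Scd1, a fatty acid desaturase, by -0.61 ± 0.11 (adjusted p = 5.71e-07). Srebf2, the sterol-regulated transcription factor, was higher at its strongest region by 0.33 ± 0.083 and lower over its start site by -0.47 ± 0.097 (adjusted p = 5.45e-05).

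Other gene groups are set beside the 5.26% higher and 18.1% lower over all symbols. Of 64 cytosolic ribosomal protein genes 5 were higher (7.81%) and 4 lower (6.25%), with a median of 0.0098 against -0.17 over all symbols. Of 12 housekeeping genes 4 were lower (33.3%) and 0 higher by the strongest region. Among them was Actb with -0.39 ± 0.080 (adjusted p = 5.38e-05), and a further region of Gapdh was higher by 0.50 ± 0.14 (adjusted p = 0.0100). Heat shock genes had 1 higher (Dnajb1) and 1 lower (Hspa8) of 9 (11.1% each). Interferon response genes had 1 higher (Usp18) and 1 lower (Irf7) of 13 (7.69% each). Of 12 Bcl2 family and apoptosis genes 0 were higher and 1 lower (8.33%), namely Xiap, a call lost under both centrings. Hspa8, a chaperone gene, differed by -0.83 ± 0.11 (adjusted p = 1.63e-11). Bcl2l11, the gene of the pro-apoptotic protein BIM, was higher by 0.81 ± 0.17 (adjusted p = 1.33e-04) at an RBPJ-overlapping region where the drugs moved apart, with 0.33 ± 0.12 with apicidin and -0.47 ± 0.13 with GSI in the authors' deposited table. Casp8, an initiator caspase gene, was higher by 0.67 ± 0.17 (adjusted p = 0.00262) at another RBPJ-overlapping region. Of markers of other lineages, Cd74 and Itgam each had a region that was higher and Fcgr3, Gp9 and Epcam each had a region that was lower, with Fcgr3 and Epcam lost under both centrings. The neuronal genes Dlg4 and Tubb3, 2 of 12 listed with a region, were higher by 0.43 ± 0.12 (adjusted p = 0.00780) and 1.57 ± 0.51 (adjusted p = 0.0282).

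Calls clustered at some loci. Of 12081 gene symbols, 1100 had a region that was higher, 2643 a region that was lower and 133 both. Over all regions 3.01% were higher and 5.60% lower. Most loci below were picked for their number of calls, which favours symbols with many regions. On chromosome 9, the 53 regions assigned to Gm5122, I730028E13Rik and B930092H01Rik spanned 261.2 kb (chr9:60838754-61099974), and by value all 53 were higher with apicidin, 17 of them called. Their median was 1.06, from medians of 0.26 with apicidin and -0.81 with GSI in the authors' deposited table. The call of smallest adjusted p there, at chr9:61013420-61019299, overlapped RBPJ and read 0.17 ± 0.086 with apicidin and -1.42 ± 0.096 with GSI in the authors' deposited table. On chromosome 15, 13 of 111 regions assigned to the noncoding gene Gm20740 were higher and 0 lower. The call of smallest adjusted p, at chr15:63087729-63094722, lay 1265 kb beyond the Myc start-site region and read 0.060 ± 0.074 with apicidin and -0.94 ± 0.080 with GSI in the authors' deposited table, a difference of 1.00 ± 0.11 (adjusted p = 3.09e-17). A Notch-dependent Myc enhancer is known far downstream of Myc in T-cell leukaemia, and whether this region is that enhancer was not tested. Myc's own start-site region did not pass, as given above.

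Ptpro had 8 of 27 regions higher, all 27 by value, and Lrig1, an inhibitor of growth factor receptors, 9 of 49. The gene 2610307P16Rik, in the stretch before Sox4 on chromosome 13, had 11 of 168 higher. Its median was 0.15, and 63 of its 168 regions were negative. The share higher over all regions was 3.01%. Ntn1, the guidance cue netrin-1, had the most regions that were lower, 16 of 44, and its named region at chr11:68006988-68028993 read -0.80 ± 0.054 with apicidin and -0.12 ± 0.054 with GSI in the authors' deposited table. Its difference was -0.68 ± 0.077 (adjusted p = 6.10e-16). Further runs of lower regions lay at 1600029D21Rik (11 of 34, all 34 negative), Hlcs (10 of 33) and Fam92b (9 of 17, all 17 negative). Hspg2, Sik1 and Mtrr had 7 each. The share lower over all regions was 5.60%. Sik1, a salt-inducible kinase gene, differed by -1.17 ± 0.18 (adjusted p = 5.75e-09) over its start site. At these loci GSI medians lay between -0.39 and 0.21 and apicidin medians between -1.06 and -0.49 in the authors' deposited table. Neighbouring regions share signal and are not independent measurements.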

How the data were processed

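ChIP-seq for H3K27ac was made in 2 libraries per condition. Per the submitters' processing notes, FastQC, Bowtie2, SAMtools and deepTools were used, without versions, on build mm9. Which region caller, read counter or inputs entered is unstated in the sources used here. Per the file headers, the columns are those that DESeq2 writes. The base mean is a signal deposited by the authors, the normalised read count averaged over libraries. The log2 fold changes and their SEs are the authors' own. Raw and adjusted p-values are also the authors' as deposited, with none for GSI at 30586 weaker regions (the lowest base mean with one was 72.1). Per the file headers, gene symbol, distance to the start site and RBPJ overlap were assigned by the authors. The reference of the fold changes is not named and was taken to be DMSO. The deposited Wald score, fold change over SE by the authors, was not used.

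The test of the difference was the difference over its SE, referred to the normal distribution on both sides, Benjamini-Hochberg adjusted over 56342 regions, and was tested on simulated data. It used Python 3.11.15, NumPy 2.4.6, pandas 2.3.3, SciPy 1.17.1 and statsmodels 0.14.6. The 95% intervals are normal. Depth per library is unknown, so the deposited SE carries the precision. The planned contrast of counts needed values per library and was replaced by this test.

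Named were the 12 largest differences in each direction at or above the median base mean, 6 in each direction with opposite changes, the 6 largest alike within 0.5, up to 6 genes per list by smallest adjusted p with every Notch target, and the 6 genes with most calls in each direction, ties included. Members and the 25 lists were chosen with earlier results of these data known. Genes named by their strongest region, and locus counts beyond the rule, were chosen after their values were seen. Alternatives covered the SE, the regions tested, the zero, the threshold, the adjustment and the region that stands for a gene. Some genes that met the naming rule are not reported here.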

Additional observations from a re-analysis of the deposited data

How the results depend on the processing

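Counts of regions that differ moved with the SE and threshold. With the SE that assumes equal spread in the 3 conditions, 4324 regions were higher with apicidin and 6729 lower. With the SE rebuilt from the count model, an alternative chosen after seeing the data, they were 4391 and 6555. An adjusted p under 0.01 gave 1072 and 2077, a difference of at least 1 gave 454 and 546, and Benjamini-Yekutieli adjustment gave 869 and 1722. After the trend over base mean was subtracted, 2408 were higher and 2028 lower, and 76.3% of the calls were kept. Centring on the stronger regions gave 2232 and 2282 and kept 82.0%. Start-site regions kept more lower than higher calls under both centrings, with 1273 lower and 426 higher, and 1057 lower and 513 higher. Restricting the regions tested kept both counts within 1.5 times.

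The RBPJ minus other median became -0.0013 within strata. Of Notch target genes, 3 were lower with either smaller SE and 0 after either centring or by start-site regions, whose median was 0.32. For T cell receptor genes the lower count was 0 after either centring, and the median 0.33 after the trend was subtracted. Replication-dependent histone genes had 2 higher with either smaller SE and 0 by start-site regions, with medians of -0.62 by start-site regions and -0.17 with all regions averaged. For acetyltransferase genes that average gave 0.017, and it was positive too for deacetylase (0.079), Polycomb (0.082), cell-cycle (0.051), cyclin-dependent kinase inhibitor (0.041), histone variant (0.0089), heat shock (0.024), interferon response (0.0088) and housekeeping genes (0.094), whose medians by the strongest region were negative. Alike regions numbered 7302 and 7299 with the smaller SEs. Of the 198 named regions 162 were called. Only the centrings could change the sign of a difference, and neither reversed a called named region. Calls were lost at 102 named regions with a difference of at least 1 and at 21 with Benjamini-Yekutieli adjustment.

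No paired analysis was possible because the comparison has no value per library, and no library was left out for the same reason. Depth per library is unknown.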

Other observations

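Regions on the X chromosome leaned further towards lower acetylation with apicidin, a pattern seen after the values were known. Of its 934 regions 6 were higher than with GSI and 94 lower, against 1691 higher and 3046 lower of 55292 on the autosomes. Of its 215 start-site regions 0 were higher and 64 lower at a Benjamini-Hochberg adjusted p under 0.05, with a median difference of -0.39, against 305 and 1647 of 7654 and a median of -0.22 on the autosomes. The X start-site medians in the authors' deposited table were -0.36 with apicidin and 0.056 with GSI. Away from start sites the X median was 0.11 and the autosomal one 0.057. Rpl10, a ribosomal protein gene, and Xiap, an inhibitor of caspases, are examples from the lists, with differences of -0.96 ± 0.16 and -0.52 ± 0.18, of which the Xiap call was lost under both centrings, at an adjusted p under 0.01 and under Benjamini-Yekutieli adjustment. The difference between the chromosomes was not tested.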
